A study of Mus musculus with 8 samples.

Results

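The genes described here are 29 genes of cholesterol and fatty acid synthesis, chosen by name from the pathways with earlier results of these data known. They are 7 of the mevalonate steps, 11 of the squalene and sterol steps, 4 regulators and carriers of sterols, and 7 of fatty acid synthesis. Of these, 28 had a value among the 19938 genes measured with a probe set of 1 gene symbol, and Acat2 was not analysed here. The 28 were described on 8 arrays of a mouse pre-iPSC line, in cells between a somatic cell and an induced pluripotent stem cell. They carry the name MaF pre-iPSC9P2 in the labels and are 1 clone, so nothing here was repeated in a second clone.

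Cells of the vitamin C group received ascorbate at 50 µg/ml from day 2 onwards. Cells of the untreated group had the same medium without it. Both groups were kept on feeders in medium for mouse embryonic stem cells. Before lysis the cells were trypsinised and the feeder cells taken out. RNA came from cells lysed on days 3, 4, 5 and 6, with 1 array for each treatment and day, so each group had 4 arrays and a difference on a single day has no replicate. The labels do not say whether the days were separate cultures, and so the p-values here cover no more than the variation among 8 arrays, some or all of it perhaps technical. All values below are deposited log2 array values, in which a difference of 1 is a factor of 2, and errors of single genes are moderated standard errors from limma.

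Cholesterol is built from acetyl-CoA by way of mevalonate, isoprene units, squalene and lanosterol, and fatty acids are built from the same acetyl-CoA by way of malonyl-CoA. Most genes of both routes are targets of the sterol regulatory element-binding proteins, SREBP for short. These transcription factors sit in the membrane of the endoplasmic reticulum while sterols are plentiful, held there with the help of the Insig proteins, and reach the nucleus after cleavage when sterols run low. SREBP2, from Srebf2, is known mainly for sterol genes and SREBP1, from Srebf1, mainly for fatty acid genes, and both are known to act together with NF-Y, which binds CCAAT boxes, and with Sp1, which binds GC boxes.

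The promoters of 4 members are shown because they stand for the mevalonate, sterol and fatty acid steps and show where the letters of these motifs lie. Hmgcs1, Msmo1 and Cyp51 hold sterol-element letters, whereas the Fasn window holds CCAAT letters only. Each is the 250 bases before the RefSeq gene start on assembly GRCm38.p6, read 5′ to 3′ on the gene's own strand. Capitals mark matches, on either strand, to TCACNCCAC or TCACNNCA, which resemble the sterol regulatory element, and to CCAAT, which reads ATTGG on the opposite strand.
Hmgcs1, chr13:119690101-119690350, plus strand: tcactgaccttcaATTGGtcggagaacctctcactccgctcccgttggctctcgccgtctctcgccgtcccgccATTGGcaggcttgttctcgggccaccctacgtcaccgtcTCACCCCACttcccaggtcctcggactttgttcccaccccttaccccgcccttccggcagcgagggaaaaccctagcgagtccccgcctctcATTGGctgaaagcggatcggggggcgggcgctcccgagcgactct
Msmo1, chr8:64733579-64733828, minus strand: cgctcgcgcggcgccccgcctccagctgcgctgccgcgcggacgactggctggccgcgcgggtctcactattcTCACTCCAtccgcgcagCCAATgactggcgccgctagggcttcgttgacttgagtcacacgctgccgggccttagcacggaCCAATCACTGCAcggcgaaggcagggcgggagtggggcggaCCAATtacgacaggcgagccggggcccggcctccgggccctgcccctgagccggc
Cyp51, chr5:4104698-4104947, minus strand: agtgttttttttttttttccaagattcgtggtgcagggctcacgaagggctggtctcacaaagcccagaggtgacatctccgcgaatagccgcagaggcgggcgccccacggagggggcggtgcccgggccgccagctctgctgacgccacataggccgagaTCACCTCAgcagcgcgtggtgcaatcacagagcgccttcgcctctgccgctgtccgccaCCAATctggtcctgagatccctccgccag
Fasn, chr11:120824548-120824797, minus strand: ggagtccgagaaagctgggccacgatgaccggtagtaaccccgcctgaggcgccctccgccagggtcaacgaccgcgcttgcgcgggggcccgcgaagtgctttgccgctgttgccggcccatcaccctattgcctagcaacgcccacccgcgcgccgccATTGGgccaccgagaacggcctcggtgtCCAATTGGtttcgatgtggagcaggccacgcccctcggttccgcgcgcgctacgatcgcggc

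RefSeq promoter windows were matched for 22 of the 28 members, which had 27 windows in all. The remaining members are Fdft1, Fdps, Sqle, Stard4, Scd1 and Scd2. TCACNNCA was found in 9 of the 27 windows, against 11.4% of 32851 windows of all genes, and belonged to Cyp51, Dhcr7, Hmgcs1, Hsd17b7, Msmo1, Pmvk, Sc5d and Srebf2. Its longer form TCACNCCAC, every match of which is also a match of TCACNNCA, was found in Hmgcs1 alone among the members and in 1.05% of all windows. CCAAT was found in 20 of the 27 windows, against 33.8% of all windows. The GC box letters GGGCGG, not capitalised above, were likewise in 20 of 27 windows, against 32.7% of all. In Msmo1, 1 of the TCACNNCA matches overlapped a CCAAT match. A match describes the letters in a window and is not a binding site, and the 250-base windows say nothing about sites elsewhere.

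As a whole the arrays were alike, with correlations between pairs from 0.971 to 0.993 over the 19938 genes and array medians from 4.33 to 4.4. Over all genes, 150 or 0.752% passed an adjusted p of 0.05 for the vitamin C effect over days. Some pluripotency markers and some markers of feeder cells or fibroblasts moved with the treatment. Of 12 pluripotency markers, 11 had a mean difference above 0 and 3 of them passed (Nanog, Dppa5a and Utf1), while Pou5f1 was at -0.07. The mean of the list was 7.06 to 8.39 on vitamin C arrays and 6.50 to 7.13 on untreated arrays. Of 19 feeder or fibroblast markers, 18 had a mean difference below 0 and 2 of them passed (Col5a2 and Vim), while Lum was at 0.33. The mean of that list was 6.55 to 7.10 on vitamin C arrays and 6.68 to 7.62 on untreated arrays. The dimmest marker averaged 3.74 in the pluripotency list and 3.93 in the feeder or fibroblast list. Blood cell markers averaged 3.58 to 4.20 on vitamin C arrays and 3.54 to 4.20 on untreated arrays, and endothelial markers 3.56 to 3.70 on vitamin C arrays and 3.53 to 3.70 on untreated arrays. Of the 5 endothelial markers Pecam1 alone passed by limma, higher by 0.81 (adjusted p = 0.0321). It measured 4.48, 4.68, 5.20 and 4.82 on vitamin C arrays and 3.97, 3.86, 4.0 and 4.09 on untreated arrays. The 4 others did not pass and did not share its rise: Tek was lower by 0.64 (adjusted p = 0.180), and Cdh5, Kdr and Emcn were at 0.06, -0.15 and -0.15. In bulk RNA fewer cells of a type and less RNA per cell cannot be told apart.

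Some markers also moved along the days. With vitamin C, 9 of 12 pluripotency markers passed and rose per day (Sox2, Nanog, Zfp42, Esrrb, Dppa5a, Utf1, Tdgf1, Lin28a and Cdh1). Of 19 feeder or fibroblast markers, 6 passed and fell (Col1a1, Col1a2, Col5a2, Postn, Pdgfrb and Prrx1). Over all genes 8.64% passed for this slope in either direction and 5.25% upwards. Of 4 blood cell markers only Cd68, of macrophages, passed and rose, and of 5 endothelial markers only Tek passed and fell. In untreated cells Cd68 measured 6.00, 5.77, 6.35 and 7.36 and did not pass. Ptprc, also of the blood list, measured 3.30, 3.16, 2.56 and 2.85 with vitamin C and did not pass. Lyz2, of the same list, measured 2.10, 1.97, 2.10 and 2.24 with vitamin C and did not pass. Without vitamin C it measured 2.27, 2.08, 2.41 and 2.77, so it was lower with vitamin C on each day. In untreated cells 3 of 12 pluripotency markers passed and rose (Nanog, Tdgf1 and Lin28a). Of 19 feeder or fibroblast markers, 7 passed and fell (Col1a1, Col1a2, Thy1, Postn, Dcn, Pdgfrb and Prrx1), where 1.75% of all genes passed in either direction. For the change of the vitamin C difference with day, Sox2 was the marker that passed, at 0.85 per day (adjusted p = 0.0391). Over all genes 0.0652% passed for this change. The part of the pluripotency, blood and endothelial markers in the results below was not tested. For the feeder markers, values with their mean in the model are given beside the first result.

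The comparison of vitamin C with untreated cells over all 4 days asked which of these genes differed by treatment, with day as a factor. No synthesis gene passed: 0 of 28 had an adjusted p under 0.05 in either direction by limma, while 0.752% of all 19938 genes did. Without adjustment 5 of 28 lay under 0.05, against 12.7% of all genes. Of these, Fdft1, Pmvk and Insig1 were higher with vitamin C, as were 6.18% of all genes, and Tm7sf2 and Scd2 lower, as were 6.52%. Adjusted p ranged from 0.138 for Fdft1 to 0.993 for Elovl6. The differences leaned to the higher side and were small. The mean over days was above 0 for 22 members and below 0 for 6, with a median of 0.11, whereas 48.2% of all genes were above 0 with a median of -0.01. With the feeder marker mean in place of day, an alternative added after the data had been seen, 20 members were above 0 and 8 below, with a median of 0.061. In that fit members moved both ways. Insig1 was at 0.092, Mvd at 0.059 and Cyp51 at 0.0060, against 0.27, 0.21 and 0.16 with day as a factor. Further from 0 were Fasn at 0.29, Idi1 at 0.33 and Ebp at 0.32, against 0.07, 0.17 and 0.19. So were Tm7sf2 at -0.54 and Msmo1 at -0.22, against -0.33 and -0.02.

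**Figure D1:**
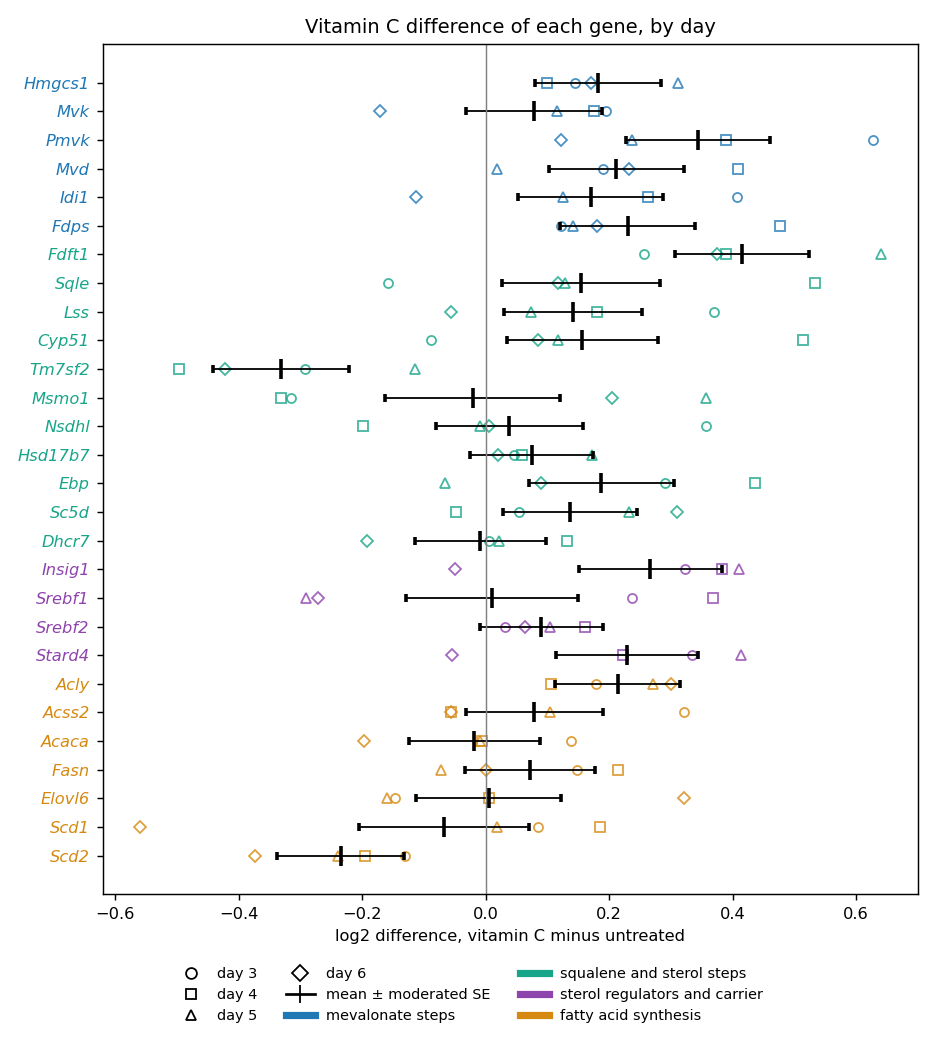
Difference between vitamin C and untreated arrays (log2, horizontal axis) for the 28 synthesis genes, with 1 point for each day, a black bar with its moderated standard error for the mean over days and colours for the groups of the pathway. Mean differences run from -0.33 for Tm7sf2 to 0.42 for Fdft1, and 22 of the 28 lie above 0.

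From day 3 to day 6, the members above 0 numbered 22, 21, 20 and 15, while the share of all genes above 0 was 52.8%, 50.3%, 46.5% and 44.6% on the same days. The vitamin C array was the higher one on every day for 8 members, namely Hmgcs1, Pmvk, Mvd, Fdps, Fdft1, Hsd17b7, Srebf2 and Acly, as it was for 9.29% of all genes. It was the lower one on every day for Tm7sf2 and Scd2, as it was for 11.1% of all genes. The 4 vitamin C arrays lay above all 4 untreated arrays for 3 members, Hmgcs1, Pmvk and Acly, and for 2.1% of all genes. They lay below all untreated arrays for 0 members and for 2.61% of all genes. Among the 14953 genes left without the dimmest, the shares were 9.62% higher on every day, 13.1% lower on every day and 2.15% with all vitamin C arrays above.

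The 6 enzymes of the mevalonate steps all had a mean difference above 0, with a median of 0.20, and 4 of them were higher with vitamin C on each day. Hmgcs1, the only member found to have a promoter window matching the letters TCACNCCAC, makes the precursor of mevalonate from acetyl-CoA units. Its log2 values on days 3 to 6 were 8.69, 8.64, 8.78 and 8.76 with vitamin C, against 8.54, 8.55, 8.47 and 8.59 without it. The groups did not overlap, but the gap between them was narrow, and the mean difference of 0.18 ± 0.10 did not pass (limma adjusted p = 0.527).

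Pmvk adds the second phosphate to mevalonate. With vitamin C it measured 5.88, 5.79, 5.68 and 5.49 on days 3 to 6, against 5.25, 5.40, 5.45 and 5.37 in untreated cells. The groups again did not overlap, and the gap was widest on day 3 (0.63) and narrowest on day 6 (0.12). The mean difference was 0.34 ± 0.12, or 1.27-fold, with a 95% interval from 0.08 to 0.61, and it did not pass (limma adjusted p = 0.249). Mvk, the kinase before it, had values of 6.63, 6.57, 6.58 and 6.42 with vitamin C, against 6.43, 6.39, 6.46 and 6.59 without. Its difference was 0.19, 0.17 and 0.12 on days 3 to 5 and -0.17 on day 6, so the groups overlapped.

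Mvd, which decarboxylates the doubly phosphorylated product to the first isoprene unit, measured 6.69, 6.88, 6.82 and 7.0 with vitamin C, against 6.50, 6.47, 6.81 and 6.77 without. Each day's vitamin C array was the higher, by as little as 0.02 on day 5 and by as much as 0.41 on day 4 (mean 0.21, adjusted p = 0.481). Idi1, which interconverts the 2 isoprene units, measured 8.65, 8.70, 8.43 and 8.06 with vitamin C, against 8.25, 8.43, 8.31 and 8.17 in untreated cells. The daily difference was 0.41, 0.26, 0.13 and -0.11, and the mean of 0.17 did not pass (adjusted p = 0.626). A second Idi1 probe set differed by 0.24, 0.39, -0.20 and -0.12 on the same days. Fdps joins the isoprene units to farnesyl pyrophosphate, the branch point to sterols. It measured 7.01, 7.22, 7.19 and 7.16 with vitamin C, against 6.88, 6.74, 7.05 and 6.98 without, and day 4 had the widest gap, at 0.48 (mean 0.23, adjusted p = 0.436).

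**Figure D2:**
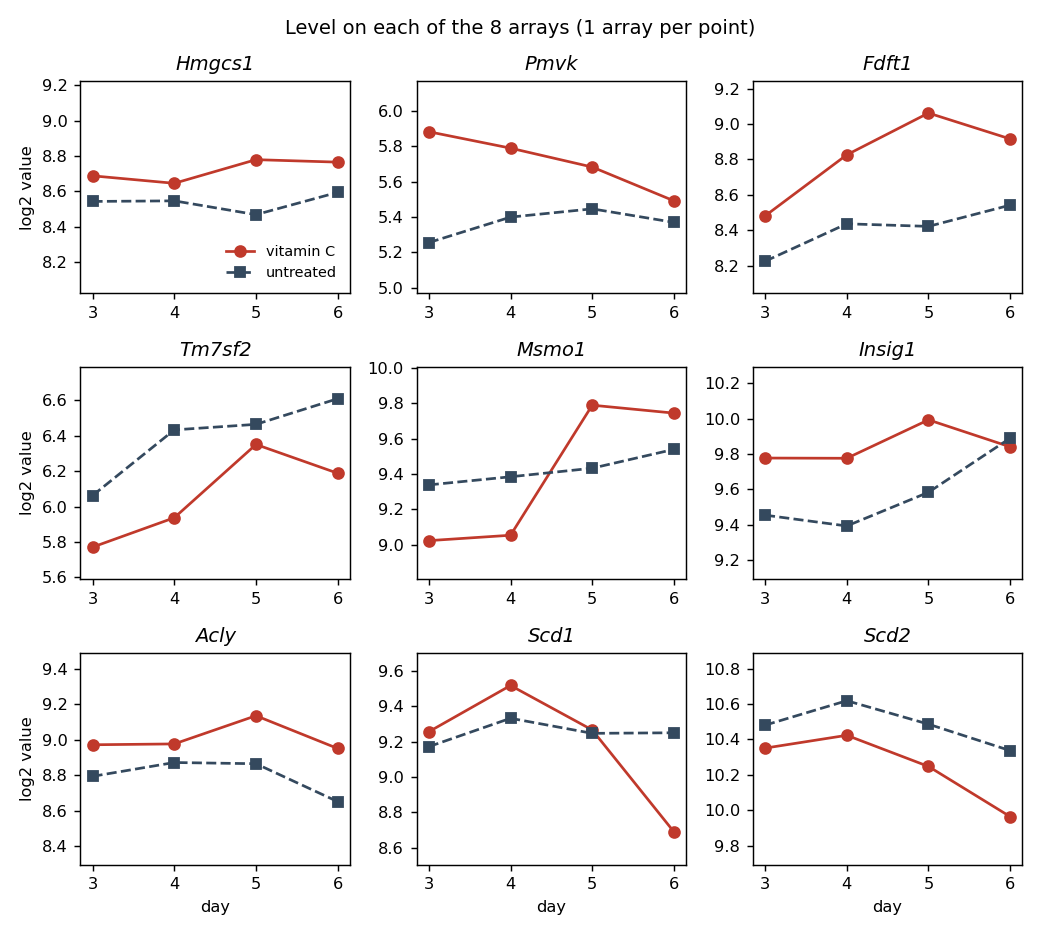
Log2 array values (vertical axis) on days 3 to 6 (horizontal axis) for selected synthesis genes, with vitamin C and untreated arrays as separate lines and 1 array per point. Each panel spans the same height on the log2 scale. Fdft1 and Pmvk lie higher with vitamin C on each day, Tm7sf2 and Scd2 lower, and the Msmo1 lines cross between days 4 and 5.

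Among the 11 enzymes of the squalene and sterol steps, 8 had a mean difference above 0 and 3 below, with a median of 0.14, and none passed. Fdft1, squalene synthase, is the first enzyme committed to sterols and had the largest mean difference of the 28. Its values were 8.48, 8.83, 9.06 and 8.92 with vitamin C, against 8.22, 8.44, 8.42 and 8.54 without. Each day's vitamin C array was the higher, by 0.26, 0.39, 0.64 and 0.37. The groups overlapped because the untreated day 6 array lay above the vitamin C day 3 array. The mean difference was 0.42 ± 0.11, or 1.33-fold, with a 95% interval from 0.17 to 0.66, and the limma adjusted p was 0.138. Among the alternatives tried it passed only with the trend and robust options of the moderation (adjusted p = 0.0290).

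A second, dimmer Fdft1 probe set measured 8.07, 8.30, 8.14 and 8.18 with vitamin C, against 7.60, 7.42, 7.71 and 7.77 without. Here the groups did not overlap. Its mean difference was 0.55 ± 0.12, with a limma adjusted p of 0.0892 over the 21789 probe sets. This setting was added after the data had been seen. Both probe sets therefore lay higher with vitamin C on all 4 days, and neither passed at 0.05.

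Sqle, the squalene epoxidase and a rate-setting step of the sterol branch, measured 7.30, 7.78, 7.57 and 7.5 with vitamin C, against 7.46, 7.25, 7.45 and 7.39 without. Cyp51, the lanosterol demethylase, measured 6.88, 7.41, 7.37 and 7.28 with vitamin C, against 6.96, 6.90, 7.25 and 7.19 without. The pair had a like course: both were lower with vitamin C on day 3, by 0.16 for Sqle and 0.09 for Cyp51. Both were then higher by the widest margin on day 4, by 0.53 for Sqle and 0.51 for Cyp51, and by 0.13 or less on days 5 and 6. Neither passed over days, with means of 0.15 (adjusted p = 0.696) and 0.16 (adjusted p = 0.677). The highest difference fell on days 3, 4, 5 and 6 in 8, 10, 7 and 3 of the 28 members. Over all genes the shares on the same days were 29.8%, 27.1%, 21.1% and 21.9%.

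Lss, which closes the rings to give lanosterol, measured 6.67, 6.77, 6.83 and 6.74 with vitamin C, against 6.31, 6.59, 6.76 and 6.80 without. Its difference was 0.37 on day 3 and -0.06 on day 6, with 0.14 over days (adjusted p = 0.678). Ebp, a sterol isomerase, measured 7.16, 7.31, 7.0 and 6.76 with vitamin C, against 6.87, 6.88, 7.06 and 6.67 without. Its vitamin C arrays were higher by 0.29 and 0.44 on days 3 and 4 and within 0.09 of the untreated ones later. Sc5d, a sterol desaturase, had the other course, at 7.44, 7.34, 7.47 and 7.5 with vitamin C, against 7.38, 7.39, 7.23 and 7.19 without, and differed by 0.23 and 0.31 on days 5 and 6.

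Tm7sf2, a sterol reductase acting after Cyp51, was the only sterol enzyme lower with vitamin C on every day. It measured 5.77, 5.94, 6.35 and 6.19 with vitamin C, against 6.06, 6.43, 6.47 and 6.61 without. The vitamin C array was lower on each day, by 0.29, 0.50, 0.11 and 0.42, while both groups reached higher values on the later days and so overlapped. The mean difference was -0.33 ± 0.11, or 0.795-fold, with a 95% interval from -0.58 to -0.08, and did not pass (limma adjusted p = 0.237). Nsdhl, a sterol dehydrogenase, measured 6.97, 6.88, 6.99 and 6.98 with vitamin C, against 6.61, 7.08, 7.0 and 6.98 without. Only its day 3 and day 4 arrays differed by more than 0.01, and in opposite directions. Hsd17b7, a sterol ketoreductase, differed by 0.05, 0.06, 0.17 and 0.02, and Dhcr7, which reduces the last double bond on the way to cholesterol, by 0.01, 0.13, 0.02 and -0.19.

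Msmo1, the oxygenase that removes methyl groups from sterols after Cyp51, was the only member that passed any of the tests. It measured 9.02, 9.05, 9.79 and 9.74 with vitamin C, against 9.34, 9.38, 9.43 and 9.54 without. The vitamin C arrays were thus the lower ones on days 3 and 4 and the higher ones on days 5 and 6, with differences of -0.32, -0.33, 0.36 and 0.20. Averaged over days the difference was -0.02 (adjusted p = 0.974). Along the days, Msmo1 rose with vitamin C by 0.29 ± 0.07 per day (95% interval 0.13 to 0.45, limma adjusted p = 0.0354). In untreated cells its slope was 0.07 per day and did not pass. The slopes themselves differed by 0.22 ± 0.10 per day, which did not pass (adjusted p = 0.447), so a treatment difference in course was not shown. With any 1 day left out the slope stayed between 0.26 and 0.38 but no longer passed, with adjusted p from 0.0611 to 0.206.

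Over the whole list, 1 of 28 members passed for the slope with vitamin C, against 8.64% of all genes in either direction and 5.25% upwards. Without adjustment 8 members lay under 0.05, against 24.9% of all genes. Of these, Msmo1, Srebf2, Tm7sf2 and Fdft1 had slopes above 0, against 11.4% of all genes, and Fasn, Idi1, Srebf1 and Scd1 below 0, against 13.4%. Fasn came next to passing, at -0.21 per day (adjusted p = 0.0542), followed by Idi1 at -0.20 per day (adjusted p = 0.0893). For the slope without vitamin C, limma called 0 of 28 members, against 1.75% of all genes. There 5 members lay under 0.05 without adjustment, against 17% of all genes: Lss, Srebf2, Tm7sf2 and Insig1 above 0, where 8.39% of all genes lay, and Fasn below 0, with 8.66%. Tm7sf2 had a slope of 0.17 per day in both treatments, but with a day left out it ran from 0.13 to 0.29 with vitamin C, the highest without day 6, and from 0.088 to 0.20 in untreated cells, the lowest without day 3. Srebf2 had 0.15 per day with vitamin C and 0.14 without.

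**Figure D3:**
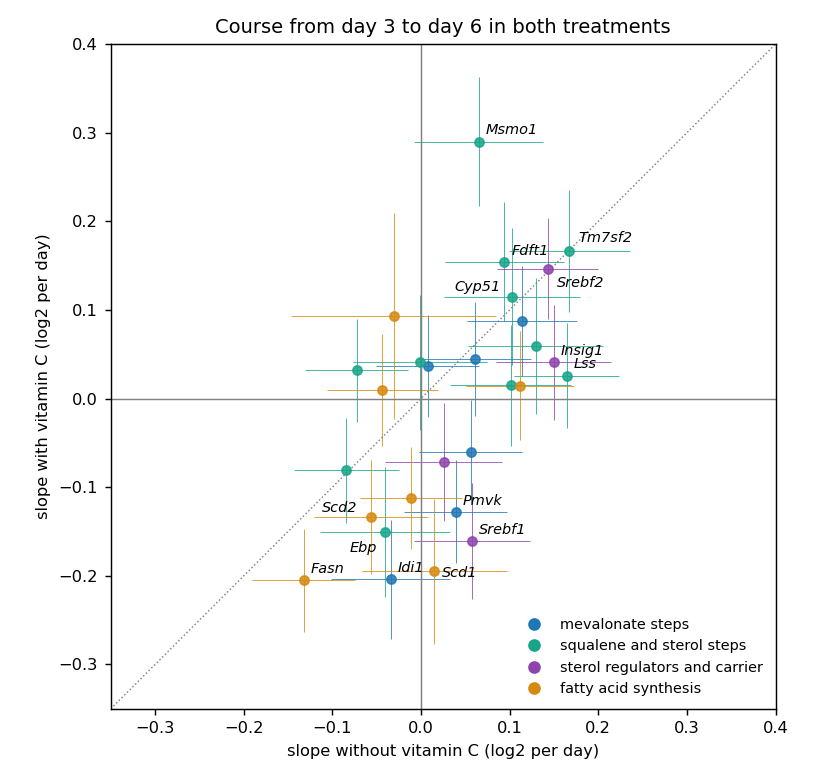
Slope on day with vitamin C (log2 per day, vertical axis) against the slope without vitamin C (log2 per day, horizontal axis) for the 28 synthesis genes, with bars for moderated standard errors, colours for pathway groups and a dotted line of equal slopes. Msmo1 lies highest, at 0.29 with vitamin C and 0.07 without, while Srebf2 and Tm7sf2 lie on or near the line of equal slopes.

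For the change of the vitamin C difference with day, limma called 0 of 28 members, against 0.0652% of all genes. Srebf1 was the only member with an unadjusted p under 0.05, and it was below 0. Over all genes 11.3% lay under 0.05 and 5.74% did so below 0. The difference of slopes was below 0 for 18 members and above 0 for 10, while 44.9% of all genes lay above 0. The median of the members was -0.07, against a median of -0.02 over all genes. Without day 6 the members were split 14 below and 14 above, with a median of 0.00073, so this lean rests on that day. After Srebf1 the values furthest below 0 were -0.21 per day for Scd1 and -0.17 per day for each of Pmvk and Idi1, and Msmo1 was furthest above 0.

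The regulators had mean differences above 0 in all 4 cases, with a median of 0.16, and none passed. Insig1, which holds SREBP in the endoplasmic reticulum and is itself a target of SREBP, measured 9.78, 9.78, 9.99 and 9.84 with vitamin C, against 9.45, 9.39, 9.58 and 9.89 without. It was higher by 0.32, 0.38 and 0.41 on days 3 to 5 and lower by 0.05 on day 6, where the untreated array was the highest of its group. The mean was 0.27 ± 0.12, or 1.20-fold (limma adjusted p = 0.388). Stard4, a carrier of cholesterol between membranes, had nearly the same course of differences, at 0.33, 0.22, 0.41 and -0.05. Its values were 7.21, 7.27, 7.19 and 6.99 with vitamin C, against 6.87, 7.05, 6.78 and 7.05 without (adjusted p = 0.470).

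Averaged over days the transcription factors themselves differed little, by 0.09 for Srebf2 and 0.01 for Srebf1, but the Srebf1 difference changed sign along the days. Srebf2 measured 8.64, 8.80, 8.94 and 9.08 with vitamin C, against 8.61, 8.63, 8.84 and 9.02 without. Both groups had their lowest array on day 3 and their highest on day 6, and the difference over days was 0.09 with a 95% interval from -0.14 to 0.32. Srebf1 measured 7.05, 7.01, 6.71 and 6.61 with vitamin C, against 6.81, 6.64, 7.0 and 6.88 without. It was higher with vitamin C by 0.24 and 0.37 on days 3 and 4 and lower by 0.29 and 0.27 on days 5 and 6. The difference of its slopes, -0.22 ± 0.09 per day, did not pass (limma adjusted p = 0.416). RNA levels do not show how much SREBP was cleaved.

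Fatty acid synthesis genes were split, with 4 mean differences above 0 and 3 below and a median of 0.01. Acly, which makes cytosolic acetyl-CoA from citrate and so feeds both routes, was the exception in being higher on each day. It measured 8.97, 8.98, 9.14 and 8.95 with vitamin C, against 8.79, 8.87, 8.87 and 8.65 without. The groups did not overlap, and the mean difference of 0.21 ± 0.10 did not pass (adjusted p = 0.437). Acss2, which makes acetyl-CoA from acetate, measured 5.85, 5.67, 5.90 and 5.82 with vitamin C, against 5.53, 5.72, 5.80 and 5.88 without, and the groups overlapped.

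Acaca, whose product malonyl-CoA commits carbon to fatty acids, measured 7.98, 7.91, 7.85 and 7.63 with vitamin C, against 7.84, 7.92, 7.86 and 7.82 without. On days 4 and 5 the treatments were within 0.01 of each other. Fasn, which builds palmitate, measured 8.78, 8.63, 8.34 and 8.20 with vitamin C, against 8.63, 8.41, 8.41 and 8.20 without. It had its highest array on day 3 and its lowest on day 6 in both groups, and the vitamin C effect over days was 0.07 (adjusted p = 0.854). Elovl6, which lengthens palmitate, measured 6.86, 7.54, 7.37 and 7.23 with vitamin C, against 7.01, 7.54, 7.53 and 6.91 without, with no steady order of the groups.

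The stearoyl-CoA desaturases Scd1 and Scd2, which put the first double bond into fatty acids, lay on the lower side at the end of the course. Scd2 measured 10.35, 10.42, 10.25 and 9.96 with vitamin C, against 10.48, 10.62, 10.49 and 10.34 without. It was lower on each day, by 0.13, 0.20, 0.24 and 0.37, and the mean of -0.23 ± 0.10, or 0.850-fold, did not pass (limma adjusted p = 0.390). Scd1 measured 9.26, 9.52, 9.27 and 8.69 with vitamin C, against 9.17, 9.33, 9.25 and 9.25 without. Its vitamin C arrays were slightly higher on days 3 to 5 and lower by 0.56 on day 6, so its mean over days, -0.07, rests on the day 6 array and is 0.10 without that day.

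Averaged over its genes, the sterol branch with 17 enzymes differed by 0.13, 0.18, 0.15 and 0.06 on days 3 to 6 (mean 0.13 ± 0.05, SD over 4 days). Its mevalonate steps differed by 0.28, 0.30, 0.16 and 0.07 (0.20 ± 0.11) and its squalene and sterol steps by 0.05, 0.11, 0.14 and 0.05 (0.09 ± 0.05). The regulators and the carrier differed by 0.23, 0.28, 0.16 and -0.08 (0.15 ± 0.16), and fatty acid synthesis by 0.08, 0.04, -0.01 and -0.08 (0.01 ± 0.07). The sterol branch was above fatty acid synthesis on each day, by 0.05, 0.14, 0.16 and 0.14. With medians over the genes in place of means the gap was 0.007, 0.17, 0.14 and 0.15, so on day 3 it was close to 0. The gap was not recomputed with the feeder marker mean in the model. The mean over all genes differed by 0.02, 0.01, -0.00 and -0.01. Beside these, feeder or fibroblast markers differed by -0.52, -0.63, -0.37 and -0.13 and pluripotency markers by 0.56, 1.0, 1.08 and 1.26 on the same days. These branch averages are descriptions and carry no test, because the genes of a branch are not replicates.

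**Figure D4:**
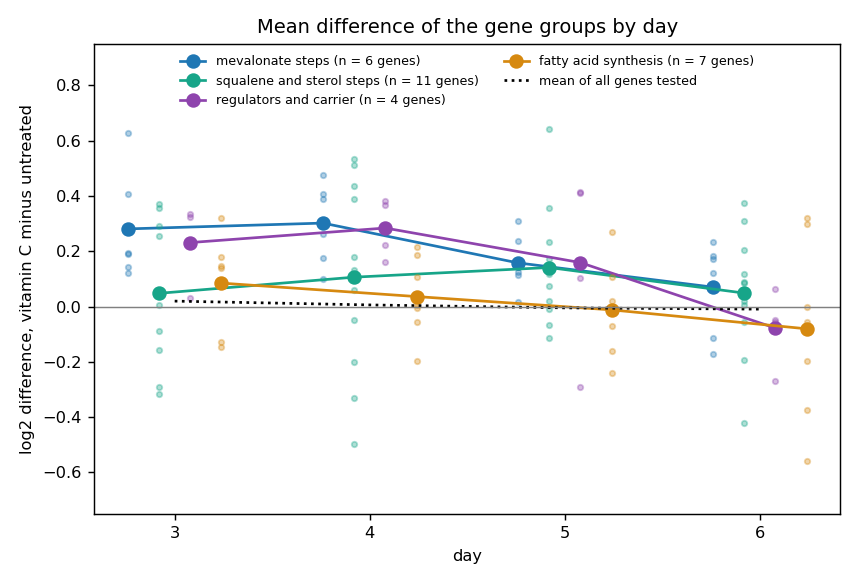
Mean difference between vitamin C and untreated arrays (log2, vertical axis) by day (horizontal axis) for the groups of synthesis genes, with small points for single genes and a dotted line for the mean of all genes. The mevalonate steps lie at 0.28 and 0.30 on days 3 and 4 and at 0.07 on day 6, and fatty acid synthesis stays between -0.08 and 0.08.

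Neighbouring genes of lipid metabolism gave no call for the vitamin C effect over days either, where 0.752% of all genes passed. Of 6 other genes of sterol synthesis and SREBP control, limma called 0, with a median of -0.02. Without adjustment 1 of the 6 was lower, as were 6.52% of all genes. That gene was Insig2, which also holds SREBP back and, unlike Insig1, is known to be little induced by it. Insig2 measured 5.99, 5.91, 5.94 and 6.04 with vitamin C, against 6.22, 6.17, 6.12 and 6.33 without. All vitamin C arrays lay below all untreated ones, whereas Insig1 was higher with vitamin C on days 3 to 5, and the Insig2 mean of -0.24 did not pass (adjusted p = 0.358). The next by p were Lbr, a sterol reductase and lamin receptor, at -0.11 and Mbtps1, a protease that cleaves SREBP, at -0.04.

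Of 8 genes of sterol efflux, storage and the liver X receptors, limma called 0 over days, with a median of -0.04. Without adjustment 1 of the 8 was lower, as were 6.52% of all genes. Abca1, which exports cholesterol from cells, measured 6.84, 6.03, 6.32 and 6.63 with vitamin C, against 7.05, 6.96, 6.92 and 7.16 without. The groups did not overlap, and the mean of -0.57 ± 0.13, or 0.675-fold, was further from 0 than that of any synthesis gene without passing (limma adjusted p = 0.0994). Abcg1, another sterol exporter, differed by 0.21 and Npc1, which releases cholesterol from lysosomes, by 0.13, and neither passed. Along the days, Abcg1 rose with vitamin C by 0.30 ± 0.08 per day (adjusted p = 0.0428), with values of 5.66, 5.51, 6.17 and 6.43, against 5.65, 5.51, 5.75 and 6.01 without. Its slopes in the 2 treatments were not shown to differ (adjusted p = 0.619).

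Of 20 other genes of fatty acid synthesis and desaturation, limma called 0 over days, with a median of -0.04. Without adjustment 2 of the 20 were lower, Fads1 and Fads3, as were 6.52% of all genes. Fads1, a front-end desaturase of polyunsaturated fatty acids, was at -0.31 (adjusted p = 0.275) and Fads3, its relative, also at -0.31 (adjusted p = 0.343), while Elovl7, an elongase, was at 0.21. Fads3 measured 5.85, 5.40, 5.06 and 5.07 with vitamin C, against 6.06, 6.08, 5.40 and 5.09 without. Its fall along the days in untreated cells passed, at -0.36 ± 0.08 per day (adjusted p = 0.0447), and its slope with vitamin C, -0.27 per day, did not (adjusted p = 0.0559), with no test showing that these slopes differ (adjusted p = 0.792).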

How the data were processed

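RNA was measured on 8 Affymetrix arrays, 4 with vitamin C and 4 untreated. The deposited values are log2 intensities summarised by the authors with RMA, run in Partek according to the submitters' processing notes. The sources used here do not give versions or the genome build of the array. The log2 scale was inferred: the largest value, 13.8, exceeds the natural log of a 16-bit reading (11.1) and not its log2 (16). RMA aligns the distributions of the arrays, so a shift shared by all genes would be removed. No array repeated another.

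Of 28853 probe sets, 21789 had 1 gene symbol, 1621 several, and 5443 are unnamed here. Symbols were updated by gene identifier to RefSeq (GRCm38.p6; 21698 matched), and the brightest probe set of each gene was kept, giving 19938 genes. limma 3.58.1 in R 4.3.3 (lmFit, eBayes) tested treatment beside day as a factor, and slopes on day per treatment with their difference, two-sided, with Benjamini-Hochberg adjustment over all genes at 0.05. Same-day arrays deviated together from their treatment means (correlations 0.371, 0.180, 0.125 and 0.475 on days 3 to 6), and the pairing comes from the day in the labels. The models were tested on simulated data. Python 3.11.15, pandas 2.3.3, numpy 2.4.6 and matplotlib 3.10.9 made the tables and plots. The number of arrays limits the precision.

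The members and all lists were chosen with earlier results of these data known. Named are all members, every context gene past the threshold in a test, and otherwise up to 3 genes per list with the smallest p. Alternatives were quantile normalization, median centring, a filter on dim genes (the lowest fraction of 0.25 by mean), trend and robust moderation, other uses of day, leaving out days, other probe sets and the feeder marker mean in place of day; the last 2 were chosen after seeing the data.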

Additional observations from a re-analysis of the deposited data

Results flagged for a closer look

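Of 56 groups of 4 arrays examined for the 28 synthesis genes, 2 held an array far from the other 3, and chance alone gives about 1 in 20. For Nsdhl the vitamin C array of day 4 was the lowest, at 6.88, with the other vitamin C arrays between 6.97 and 6.99. For Acly the vitamin C array of day 5 was the highest, at 9.14, with the other vitamin C arrays between 8.95 and 8.98.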

How the results depend on the processing

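For the vitamin C effect over days, 0 members passed in each setting, including the replicate block that pairs arrays by day in the main test and its omission, except that trend and robust moderation called 1 higher, Fdft1. Over all genes that count was 150, and 376 with trend and robust moderation, 17 with no replicate block, 291 with day as a number, 13 with the feeder marker mean in place of day, and 3 to 286 with a day left out. For the slope with vitamin C, 1 member rose and 0 fell; 1 fell (Fasn) with median centring and 1 without the dimmest genes (adjusted p = 0.0392 and 0.0358), and with trend and robust moderation 2 rose (Msmo1, Srebf2) and 2 fell (Fasn, Idi1). With a day left out the number that rose was 0 to 0. The counts over all genes were 1722 and 167 to 1549 with a day left out for this slope, 349, 782 with trend and robust moderation and 1 to 252 with a day left out for the untreated slope, and 13, 21 with quantile normalization, 20 without the dimmest genes, 80 with trend and robust moderation and 0 with any day left out for the change with day. Genes higher and lower along the days with vitamin C numbered 1046 and 676, and 942 and 930 with median centring. Fitting the replicate block as a random effect in the slope models changed no member's call. Signs of differences near 0 turned as follows. With the feeder marker mean, Abcg1 was at -0.086, Acaca 0.058, Acss2 -0.020, Fads3 0.16, Lss -0.00082, Npc1 -0.056, Nsdhl -0.025, Scd1 0.037 and Srebf2 -0.12. With quantile normalization, Dhcr7 was at 0.016 and Msmo1 at 0.0012. With 1 day left out in turn, the ranges were -0.071 to 0.041 for Acaca, -0.0021 to 0.12 for Acss2, -0.055 to 0.053 for Dhcr7, -0.10 to 0.060 for Elovl6, -0.085 to 0.0051 for Mbtps1, -0.15 to 0.082 for Msmo1, -0.068 to 0.12 for Nsdhl, -0.15 to 0.096 for Scd1 and -0.11 to 0.11 for Srebf1, and -0.41 to 0.0050 per day for the Scd1 slope with vitamin C. The Abcg1 slope was lost with median centring (adjusted p = 0.0514) and without day 5 or 6, the Cpt1a slope without day 3 or 6, and the Fads3 slope with quantile normalization (adjusted p = 0.0511) and without any day; Abca1 passed with trend and robust moderation (adjusted p = 0.0306). The causes of these changes were not tested. Mean differences stayed within 1 SD of the reported values for the 4 branch values recomputed, at 0.11 to 0.15 for the sterol branch, 0.10 to 0.22 (without day 6) for the regulators and the carrier, 0.11 to 0.15 for sterol minus fatty acid synthesis and -0.019 to 0.036 for fatty acid synthesis, below 0 without day 3 or day 4. The branch values were not recomputed with the feeder marker mean in place of day, so these ranges do not cover that setting. The log2(value + 1) alternative did not apply to values already on a log scale.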

Other observations

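Of 9 genes of fatty acid oxidation, the route opposite to synthesis, limma called 0 for the vitamin C effect over days, with a median of 0.06. Without adjustment 1 of the 9 was higher, as were 6.18% of all genes. Acadl, a mitochondrial acyl-CoA dehydrogenase, was at 0.30 (adjusted p = 0.351), Acadvl, which takes longer chains, at -0.20, and Hadhb, a subunit of the trifunctional protein, at 0.08. Along the days, Cpt1a, which admits fatty acids to mitochondria, rose with vitamin C by 0.36 ± 0.07 per day (adjusted p = 0.0118). It measured 6.17, 6.35, 6.88 and 7.21 with vitamin C, against 6.89, 6.91, 6.54 and 6.85 without. The vitamin C arrays were the lower ones on days 3 and 4 and the higher ones on days 5 and 6, the same order of groups as for Msmo1. The difference of the Cpt1a slopes, 0.41 ± 0.10 per day, did not pass (adjusted p = 0.179).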
